A study of Mus musculus with 4 samples.

Results

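The immediate early genes were described here in ribosome-bound RNA of the deep cerebellar nuclei, through which the cerebellum sends its output. The set holds 10 genes, chosen by exact gene symbol as activity-induced genes: Egr1, Egr2, Egr3, Egr4, Fos, Fosb, Junb, Arc, Nr4a1 and Npas4. All 10 were among the 32532 gene symbols counted. The RNA came from adult transgenic mice that carry the Slc17a6-EGFP/Rpl10a construct (line JX883), in which ribosomes of cells that express the construct carry an EGFP tag. Tagged ribosomes were captured with antibodies against EGFP, a method called translating ribosome affinity purification (TRAP). The samples form 1 group of 4 libraries, each from 3 mice and none treated, with no untagged, input or stimulated sample among them. Their titles carry the numbers 1300, 1301 and 1302 for replicates 1 to 3 and 1476 for replicate 4. What the numbers stand for is not stated. Any difference that goes with them cannot be told apart from replicate 4 itself. How the mice were handled before tissue collection is not stated in the labels. Nor do they state that the libraries came from separate sets of mice, so the p-values below measure only how these 4 libraries vary, which may be technical.

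Immediate early genes are transcribed within minutes of a rise in neuronal activity, without the need for new protein. Calcium and kinase signals act on factors already bound at their promoters, among them CREB, which binds cyclic AMP response elements, and serum response factor with its partners, which binds the CArG box. Most of the genes encode transcription factors that switch on a later set of genes, whereas Arc encodes a protein that acts at synapses. Their RNAs are short-lived, so a level reflects the recent past of the cells up to tissue collection.

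The libraries held 9621762, 10306407, 10436291 and 10988373 gene counts (replicates 1 to 4). Levels are given in counts per 1000000 assigned counts (CPM), not divided by gene length unless stated. Intervals are exact Poisson 95% intervals, and a library with no count is given its floor, the level of 3 counts, which was 0.273 to 0.312 CPM. Both cover counting error only. Slc17a6, the vesicular glutamate transporter gene for which the line is named, ranged from 2011 to 2309 CPM, so the library with the highest level exceeded that with the lowest far less than for any of the 10 genes below.

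Promoter windows of 7 of the 10 genes were found in a RefSeq table of build GRCm38.p6, each running from 250 bases before to 50 bases after an annotated start. Egr1, Egr3 and Arc had no entry. The letters TGACG, the core of the cyclic AMP response element read on either strand (as CGTCA on the other), occurred in a window of all 7 genes, namely Egr2, Egr4, Fos, Fosb, Junb, Npas4 and Nr4a1. They occurred in 20.8% of all 32851 windows of that length. The 7 genes had 11 windows, because Egr2 had several, some of them overlapping. Here and below, a gene was counted if any of its windows matched, whereas the percentages count windows, so the units are unlike. The windows of Fos, Fosb, Nr4a1 and Npas4 are printed because their genes had different orders of level across the libraries. Capitals mark TGACG or CGTCA, and each window is written in the direction of its gene.
Fos, chr12:85473640-85473939, plus strand: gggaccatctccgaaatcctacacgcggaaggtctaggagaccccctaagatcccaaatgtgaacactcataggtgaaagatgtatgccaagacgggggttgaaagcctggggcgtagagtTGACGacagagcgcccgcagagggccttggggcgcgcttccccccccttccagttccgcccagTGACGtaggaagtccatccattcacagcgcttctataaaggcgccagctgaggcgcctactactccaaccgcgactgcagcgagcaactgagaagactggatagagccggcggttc
Fosb, chr7:19309996-19310295, minus strand: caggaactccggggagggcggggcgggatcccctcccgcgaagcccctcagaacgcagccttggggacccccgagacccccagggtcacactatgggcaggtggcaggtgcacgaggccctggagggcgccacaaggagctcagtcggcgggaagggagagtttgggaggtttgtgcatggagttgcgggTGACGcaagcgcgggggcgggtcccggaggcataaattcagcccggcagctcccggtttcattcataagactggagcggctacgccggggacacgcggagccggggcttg
Nr4a1, chr15:101266596-101266895, plus strand: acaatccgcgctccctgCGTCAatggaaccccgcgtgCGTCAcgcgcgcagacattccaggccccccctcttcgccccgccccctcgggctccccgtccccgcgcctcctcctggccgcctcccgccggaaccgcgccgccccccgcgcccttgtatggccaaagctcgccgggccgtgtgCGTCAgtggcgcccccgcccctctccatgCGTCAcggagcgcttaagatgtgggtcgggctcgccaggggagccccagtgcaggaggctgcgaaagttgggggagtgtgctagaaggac
Npas4, chr19:4989922-4990221, minus strand: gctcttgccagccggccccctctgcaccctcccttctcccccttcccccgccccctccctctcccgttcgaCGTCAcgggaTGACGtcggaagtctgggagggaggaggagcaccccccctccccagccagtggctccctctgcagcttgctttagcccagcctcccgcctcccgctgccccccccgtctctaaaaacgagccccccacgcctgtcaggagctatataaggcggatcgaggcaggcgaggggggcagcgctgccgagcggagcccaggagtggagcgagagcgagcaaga
The Fos and Npas4 windows held 2 matches each, that of Nr4a1 held 4 and that of Fosb held 1. The full palindrome TGACGTCA was in a window of 0 of the 7 genes and in 1.79% of all windows. A CArG box was found in windows of Egr2 only, against 1.63% of all windows. GCGNGGGCG, the site that Egr proteins bind, was found for Fosb and Nr4a1 (5.55% of all windows), TATAAA for Fos and Junb (13.6%), and TGANTCA, the site of Fos and Jun dimers, for none (7.81%). A match is a stretch of letters and was not tested for binding, and sequence outside these windows was not searched.

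The Egr genes encode zinc finger transcription factors that bind the same GC-rich site. Egr1 was the most abundant of the 10 genes and of its family. It stood at 326, 167, 94.8 and 169.5 CPM in replicates 1 to 4, with a mean of 189 ± 97.3 CPM (SD, n = 4). Replicate 1 was highest and replicate 3 lowest, at a ratio of 3.44, while replicates 2 and 4 were nearly equal. Egr1 alone took 69.6, 68.7, 69.6 and 72.5% of the counts of the 10 genes in replicates 1 to 4, so its share hardly moved while the summed level went from 136 to 468 CPM.

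Egr3, a relative of Egr1 that Egr1 and other early factors can induce, stood at 45.5, 20.1, 5.17 and 11.3 CPM, with a mean of 20.5 ± 17.8 CPM. Its libraries ran in the order 1, 2, 4, 3, and replicate 1 was 8.80 times replicate 3. Divided by union exon length, Egr1 exceeded Egr3 by a log2 ratio of 2.81, 3.03, 4.17 and 3.88 in replicates 1 to 4. Egr1 was therefore higher in 4 of 4 libraries, and by the smallest margin in the library where both were highest.

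Egr4 and Egr2 were near the limit of detection. Egr4 had 37, 4, 22 and 1 counts, or 3.85, 0.388, 2.11 and 0.0910 CPM. It was seen mainly in replicates 1 and 3, whose Poisson intervals (2.71 to 5.30 and 1.32 to 3.19 CPM) lay above those of replicates 2 and 4 (0.106 to 0.994 and 0.00230 to 0.507 CPM). Egr2, known in the nervous system also for its part in myelination by Schwann cells, had 15, 1, 0 and 0 counts. Its level in replicate 1, 1.56 CPM, was 5.42 times the floor in replicate 3 and 5.71 times the floor in replicate 4, and neither ratio is a bound. The Poisson interval of replicate 1, 0.873 to 2.57 CPM, lay above those of replicates 3 and 4 (up to 0.353 and 0.336 CPM).

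Fos, Fosb and Junb encode members of the AP-1 family, in which a Fos protein pairs with a Jun protein to bind DNA. Fos stood at 18.1, 16.0, 4.50 and 1.37 CPM in replicates 1 to 4, a mean of 9.99 ± 8.29 CPM. Fosb stood at 20.8, 10.4, 2.97 and 11.2 CPM, a mean of 11.3 ± 7.31 CPM. Both were highest in replicate 1 and both were low in replicate 3. They parted in replicate 4, where Fos had its lowest level (15 counts) and Fosb was close to its mean (123 counts).

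Per union exon length, the log2 ratio of Fosb to Fos was -1.21, -2.03 and -2.01 in replicates 1 to 3 and 1.63 in replicate 4. Fos was thus the higher of the pair in 3 of 4 libraries and the lower in replicate 4. The union exon length of Fosb, 6243 bases, is longer than its longest transcript of 3782 bases, and that choice lowers its level per length. Fosb also has a splice form that encodes a stable, truncated protein, which gene-level counts do not tell apart from the full-length form.

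Junb, the Jun partner in the set, had 22, 23, 3 and 2 counts, or 2.29, 2.23, 0.287 and 0.182 CPM. Its 2 higher libraries, replicates 1 and 2, had intervals of 1.43 to 3.46 and 1.41 to 3.35 CPM, above those of replicates 3 and 4 (up to 0.840 and 0.657 CPM). Like Fos, Junb was therefore seen mainly in the same pair of libraries. Exons of Junb overlap those of Prdx2 on the opposite strand over 173 of 2301 bases, and Prdx2 had 464 to 1212 counts. Whether the counting used strand is not known here, which makes the small counts of Junb uncertain. No exon of the other 9 genes overlapped an exon of another gene in the annotation.

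**Figure D1:**
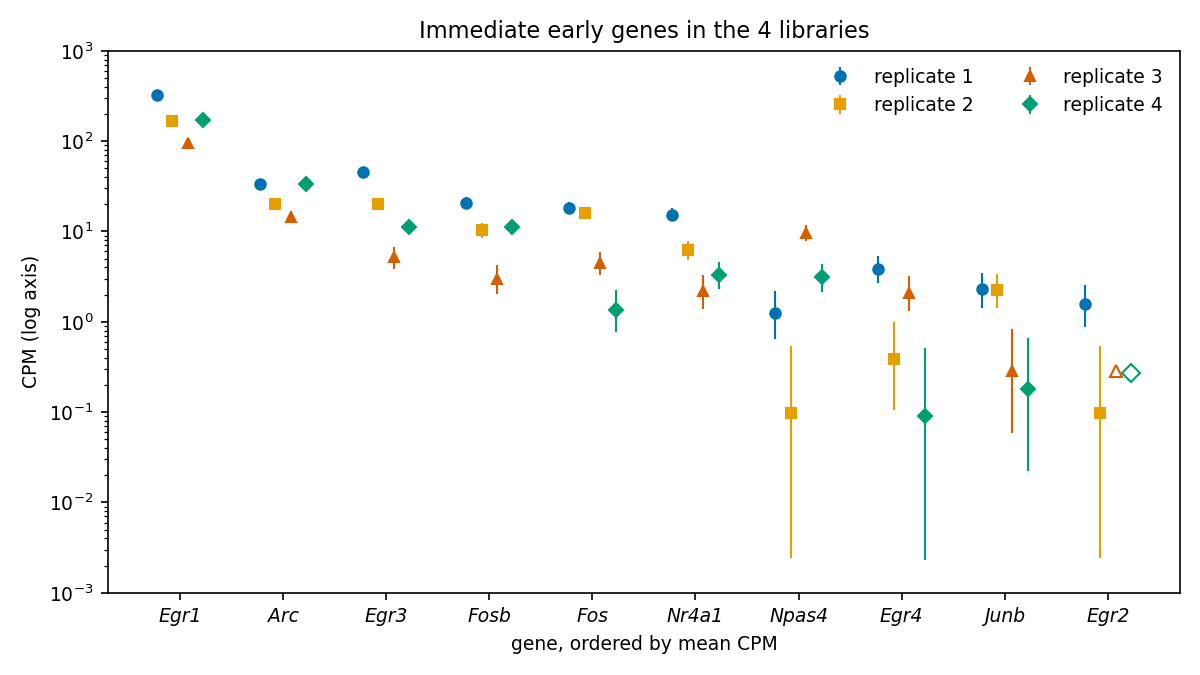
Level of each immediate early gene in CPM (log axis) in replicates 1 to 4, with exact Poisson 95% intervals for counting error; genes are ordered by mean CPM and open symbols mark the floor of a library with no count. Replicate 1 is the highest point for 8 genes, whereas Arc peaks in replicate 4 at 33.8 CPM and Npas4 in replicate 3 at 9.58 CPM.

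Arc encodes a synaptic protein whose RNA is carried into dendrites and translated there, and it takes part in the removal of AMPA receptors from synapses. It stood at 33.7, 20.4, 14.5 and 33.8 CPM, a mean of 25.6 ± 9.71 CPM. Replicates 1 and 4 were level with each other, and replicate 4 was 2.33 times replicate 3. The ratio of its highest to its lowest library was the smallest among the 9 genes with a count in every library.

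Nr4a1 encodes an orphan nuclear receptor and stood at 15.3, 6.21, 2.20 and 3.28 CPM, a mean of 6.74 ± 5.94 CPM. Replicate 1 was 2.46 times replicate 2 and 6.93 times replicate 3. The order of its libraries, 1, 2, 4, 3, was the same as for Egr3.

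Npas4 encodes a transcription factor that responds to calcium entry in neurons and is known for its selectivity for neuronal activity. Its order was unlike that of any other gene of the set. It had 12, 1, 100 and 34 counts, or 1.25, 0.0970, 9.58 and 3.09 CPM in replicates 1 to 4. Replicate 3, in which 5 of the other genes had their lowest level, was the highest for Npas4, at 7.68 times replicate 1. The intervals of replicate 3 (7.80 to 11.7 CPM), replicate 4 (2.14 to 4.32 CPM) and replicate 2 (0.00246 to 0.541 CPM) did not overlap. Per union exon length, the log2 ratio of Fos to Npas4 was 4.67 in replicate 1, -0.27 in replicate 3 and -0.37 in replicate 4, and that of Nr4a1 to Npas4 was 3.85, -1.88 and 0.32. Replicate 2, with 1 count of Npas4, gave no ratio.

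Levels of different genes were ordered per kilobase of union exon length. Egr1 was highest at a mean of 42.2 ± 21.7 CPM per kilobase (n = 4), then Arc at 8.36 ± 3.18, Egr3 at 4.66 ± 4.03, Fos at 4.25 ± 3.53, Nr4a1 at 1.92 ± 1.69 and Fosb at 1.82 ± 1.17 CPM per kilobase. Npas4 at 0.847 ± 1.02, Egr4 at 0.749 ± 0.808, Junb at 0.542 ± 0.508 and Egr2 at 0.122 ± 0.225 CPM per kilobase made up the lower end. Egr1 stood apart from Arc with no overlap between their libraries. Of the 9 pairs of neighbours in this order, the other 8 had overlapping ranges, and 3 pairs (Egr1 over Arc, Arc over Egr3 and Junb over Egr2) kept their order in 4 of 4 libraries. Genes further apart in the order separated more often: of all 45 pairs, 30 kept their order in 4 of 4 libraries and 20 had ranges that did not overlap. These 20 were Egr1 over the other 9 genes, Arc over Nr4a1, Fosb, Npas4, Egr4, Junb and Egr2, Egr3 over Junb and Egr2, and Fos, Nr4a1 and Fosb over Egr2. With 4 libraries, an exact test of a pair could not reach the 0.05 threshold, and none was run.

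Each library was then set against the other 3 in a fit over 15083 genes, to ask whether any gene of the set differed in 1 library beyond the spread of the rest. None of the 10 passed in any of the 4 comparisons by edgeR's quasi-likelihood test with Benjamini-Hochberg adjustment over all genes (adjusted p of 0.241 or more). DESeq2's Wald test also called 0 of 10 in each, with the smallest adjusted p at 0.0664, and gave no adjusted p for 1, 0, 1 and 2 of the 10. Few genes of any kind were called. In replicate 1, edgeR called 0.0199% of all genes higher and 0% lower, in replicates 2 and 3 it called 0% in both directions, and in replicate 4 it called 0.0398% higher and 0.00663% lower. DESeq2 called 0.0881% higher and 0.103% lower in replicate 1, 0.00663 and 0.0398% in replicate 2, 0.151 and 0.431% in replicate 3, and 1.07 and 1.78% in replicate 4. The 4 comparisons share libraries and are not independent.

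At an unadjusted p under 0.05 in edgeR's test, the genes were Egr1 and Egr3 in replicate 1 (2 of 10, against 3.30% of all genes), Npas4 in replicate 2 (1 of 10, against 0.517%), Egr1, Egr3 and Fosb in replicate 3 (3 of 10, against 7.01%) and Fos in replicate 4 (1 of 10, against 14.7%). The share for Fos in replicate 4 was below that of all genes. Each of these p-values rests on 1 library against 3, and none held after adjustment. DESeq2 gave the same genes, with 4.35, 1.17, 8.43 and 16.5% of all genes in the 4 comparisons. The log2 fold of Egr3 was 1.70 (SE 0.71) in replicate 1 and -2.21 (SE 0.82) in replicate 3. That of Egr1 was 0.97 (SE 0.42) and -1.15 (SE 0.49) in the same libraries. Fosb stood at -2.18 (SE 0.90) in replicate 3, and Fos at -3.05 (SE 1.06) in replicate 4, with edgeR's adjusted p at 0.241. Npas4 stood at -5.44 (SE 2.48) in replicate 2, where it had 1 count, and at 2.67 (SE 1.37) in replicate 3. The filter keeps a gene that is high enough in 1 library, so that all 10 genes entered the fit says nothing about their level in the others, and the fitted fold of Egr2, with 0 counts in 2 libraries, is no bound.

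**Figure D2:**
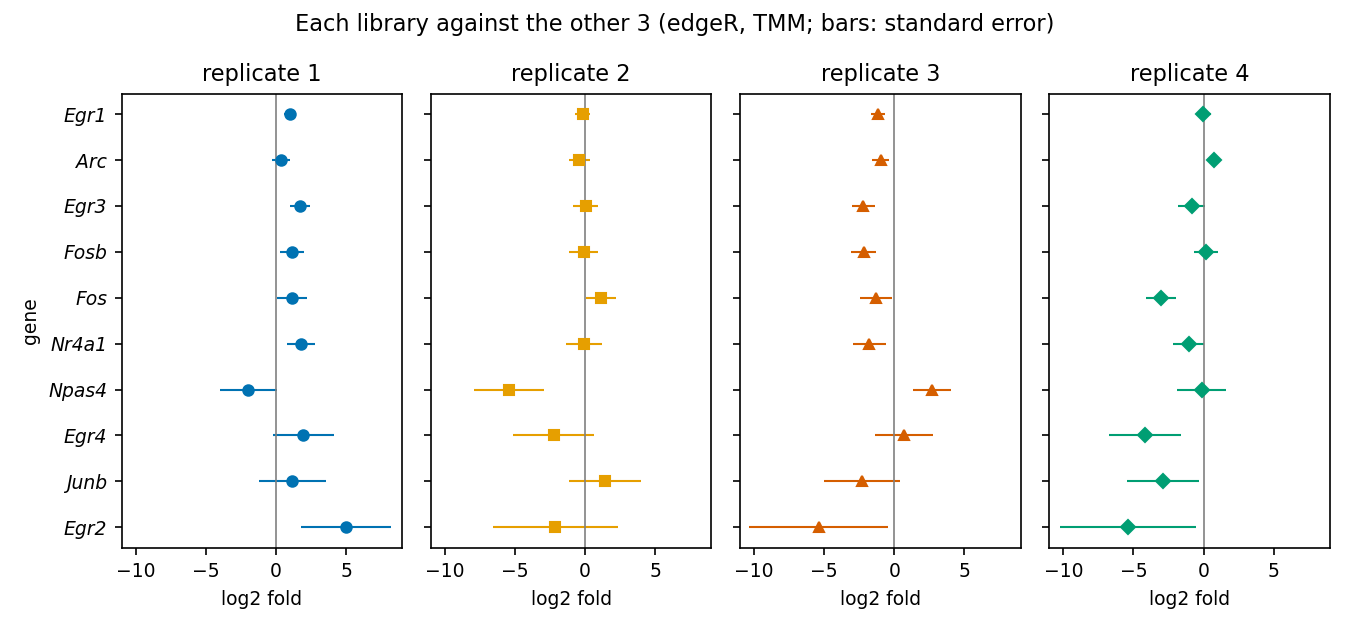
Log2 fold change of each immediate early gene in 1 library against the other 3, from edgeR with TMM scaling. Bars show its standard error, worked out from the fold and the F statistic. Of all genes tested, 44.4% lay right of 0 in replicate 1 and 44.6% in replicate 3. In replicate 1 the points lie right of 0 for 9 genes and left of it for Npas4 (-1.96), and in replicate 3 they lie left of 0 for 8 genes and right of it for Npas4 (2.67) and Egr4 (0.70); no point passed the adjusted threshold.

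By level alone, 8 of the 10 genes had their highest CPM in replicate 1, against 33.5% of all genes tested. Of the lists described below, so did 5 of 7 detected AP-1 and ATF genes and 13 of 18 upstream kinase and phosphatase genes. The shares were lower for other rapid transcription factors (7 of 16), signalling genes (5 of 19), effectors (6 of 13) and upstream factors (5 of 20). Npas4 was highest in replicate 3 (25.4% of all genes) and Arc in replicate 4 (23.9%). The lowest level lay in replicate 3 for 5 genes (27.0% of all genes), in replicate 4 for 3 (36.9%) and in replicate 2 for 1 (15.5%), and Egr2 was at 0 in 2 libraries. Replicate 1 also differed from the others in its reads: those with no feature were 14.1% in it and 19.3 to 21.1% in the others, those not unique 14.2% and 18.8 to 20.6%, and ambiguous ones 2.94% and 2.04 to 2.20%. The ribosomal RNA precursor Rn45s took 4.99 and 4.92% of gene counts in replicates 1 and 4, where Arc was higher, and 14.2 and 13.6% in replicates 2 and 3. The part of these differences in the levels was not tested. With TMM-scaled CPM, Junb was highest in replicate 2 and 7 genes were highest in replicate 1. The shares of all genes above are for CPM without TMM scaling. They were not computed on the TMM scale, so the 7 genes have no like share beside them. The median log2 fold of the 10 genes was 1.15 in replicate 1 and -1.55 in replicate 3, where the medians over all tested genes were -0.10 and -0.10. In replicates 2 and 4 it was -0.15 and -0.96, beside -0.09 and -0.16. Library totals in place of TMM scaling moved the median of all genes by 0.20 in replicate 1 and by -0.16 in replicate 4, and turned the sign for Egr3 in replicate 2 and Fosb in replicate 4, both near 0.

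The spread between libraries was set beside that of other genes. The SD of log2(CPM + 0.5) was above the median of 11227 genes, 0.48, for 10 of the 10 genes, whose own median was 1.11. It ranged from 0.58 for Arc and 0.73 for Egr1 to 1.57 for Fos and 1.72 for Npas4. The 11227 genes are those kept by a filter for counts across the libraries. It kept 6 of the 10, leaving out Egr2, Egr4, Junb and Npas4. The SDs of these low genes were thus set beside genes with more counts, and hold more counting error. Low genes vary more in general, so edgeR's dispersion, which takes counting error out and is drawn toward genes of like level, was added for the 6 kept. Expressed as a biological coefficient of variation, it was 0.643 for Fos, 0.601 for Nr4a1, 0.551 for Fosb, 0.532 for Egr3, 0.400 for Arc and 0.331 for Egr1, beside a median of 0.387 over all genes kept. Egr1 was thus below that median and 5 genes were above it. The median is over kept genes of every level, so it does not set a gene beside others of its own level.

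**Figure D3:**
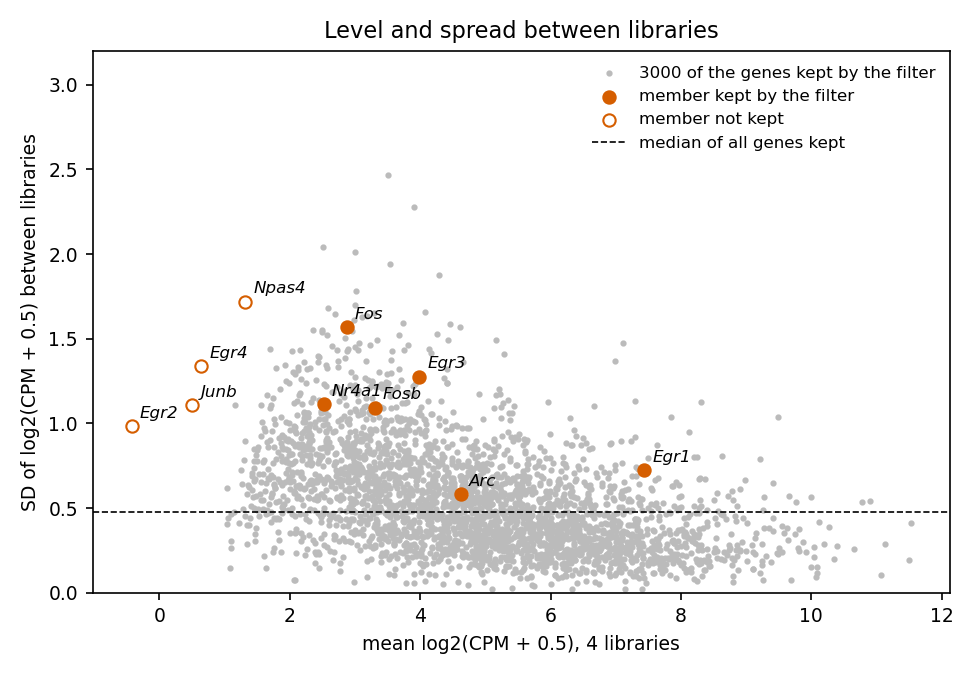
SD of log2(CPM + 0.5) between the 4 libraries against mean log2(CPM + 0.5), for the 10 immediate early genes (orange) and 3000 of the genes kept by the filter (grey); the dashed line is the median of all genes kept, 0.48. Fos (1.57) and Npas4 (1.72) are the highest of the 10, and Arc (0.58) lies nearest to the line.

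Other genes of the early response were taken from 4 lists. Among 9 other AP-1 and ATF factor genes, Jun, the main partner of Fos proteins, stood at 46.6, 38.4, 31.4 and 19.7 CPM, Fosl2 at a mean of 32.8 ± 10.02, Jund at 31.3 ± 7.15, Mafg at 26.1 ± 12.6 and Mafk at 9.35 ± 3.25 CPM. The libraries of Jun ran in the order 1, 2, 3, 4, as did those of Fos, and Fosl1 and Batf had no count in any. Among 17 other rapidly induced transcription factor genes, Atf4, a stress-response factor, led at 138 ± 49.8 CPM, then the clock-related factor Bhlhe40 at 124.8 ± 22.7, Nr4a2 at 56.3 ± 42.2, Klf6 at 48.5 ± 11.2 and the clock gene Per1 at 40.6 ± 6.60 CPM. Nr4a2, a relative of Nr4a1, stood at 24.6, 70.3, 20.4 and 109.7 CPM, highest in replicate 4, whereas Nr4a1 was highest in replicate 1. In these 2 lists, 7 and 16 genes were tested, and edgeR called 0 in either direction in any comparison.

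Of the induced signalling and RNA stability genes, Rgs2 stood at 90.6 ± 42.8, Rheb at 85.0 ± 26.9, Sgk1 at 77.5 ± 17.6, Errfi1 at 69.4 ± 22.9 and Dusp1 at 68.7 ± 9.90 CPM. Dusp1, a phosphatase that switches off mitogen-activated kinases, was highest in replicate 1 at 83.1 CPM and between 61.8 and 67.2 CPM in the others. Of the later effector genes, Scg2 stood at 468 ± 172, Cpeb3 at 363 ± 33.3, Syt4 at 328 ± 93.5, Nrn1 at 324 ± 135 and Rasgrp1 at 112 ± 54.2 CPM. Scg2, a granin of secretory vesicles, stood at 688, 414, 277 and 493 CPM, an order of libraries shared with Egr1. Of 18 and 13 genes tested in these lists, 0 passed in any comparison by edgeR's adjusted test. The median log2 fold in replicate 1 was 0.45 for the AP-1 and ATF list, 0.08 for the other transcription factors, -0.24 for the signalling genes and 0.33 for the effectors, beside 1.15 for the 10 genes and -0.10 for all genes.

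Genes upstream of the early response were measured in 2 more lists. Of the transcription factors and co-factors, the CREB-binding co-activator gene Crebbp stood at 322 ± 54.1, Mkl2, a partner of serum response factor, at 309 ± 125.1, Ep300 at 278 ± 86.7, Mef2d at 273 ± 40.3 and Arnt2, a partner of Npas4, at 203 ± 45.9 CPM. Of the kinases and phosphatase subunits, the calcineurin subunit gene Ppp3r1 stood at 561 ± 174, Camk2b at 430.4 ± 76.1, Ppp3ca at 425 ± 96.4, Braf at 408 ± 31.6 and Camk2a at 389 ± 269 CPM. Camk2a, the alpha subunit of a calcium-activated kinase, stood at 688, 229, 103 and 534 CPM, with the same highest and lowest library as Egr1. Of 20 and 18 genes tested, 0 passed in any comparison by edgeR's adjusted test.

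Heat shock and handling response genes were measured because tissue collection can also induce early genes. Hspa8, a constitutive chaperone, led at 1082 ± 72.2 CPM, then Hsp90aa1 at 673 ± 186, Hsph1 at 527 ± 86.6, Hspa5 at 139.9 ± 20.5 and Dnajb1 at 117 ± 75.3 CPM. The summed level of the 10 genes of that list was 2572, 2295, 2492 and 2846 CPM, most of it from Hspa8, Hsp90aa1 and Hsph1. Dnajb1, a heat-inducible co-chaperone, stood at 226, 106, 69.9 and 64.6 CPM, and Hspa1a, a strictly inducible chaperone, at 4.57, 2.33, 2.30 and 2.18 CPM. Both were highest in replicate 1, as were 8 of the immediate early genes. They were the only 2 of the 10 listed genes to peak there, beside 1, 4 and 3 in replicates 2 to 4. Hspa1b of the same list stood at 0.624, 0.582, 0.575 and 1.27 CPM (6, 6, 6 and 14 counts), highest in replicate 4. The median log2 fold of the list in replicate 1 was -0.21, beside -0.10 for all genes. The part of the listed genes in the levels of the early genes was not tested.

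Markers of other cell types moved with the libraries. The summed CPM of the 10 immediate early genes was 468, 243, 136 and 234 in replicates 1 to 4. Glutamatergic nuclear neuron markers, led by Slc17a6 and Meis2 at 2143 ± 153 and 342 ± 91.2 CPM, summed to 3210, 2773, 2706 and 3433 CPM. Inhibitory neuron markers, led by Gad2 and Gad1 at 120.4 ± 82.4 and 45.6 ± 32.7 CPM, summed to 116, 181, 372 and 73.8 CPM. Replicate 3 was thus highest for the summed inhibitory markers and lowest for the summed early genes. Egr1 alone took 68.7 to 72.5% of the counts in that second sum. By gene, 5 of the 10 early genes were lowest in replicate 3 (27.0% of all genes), and Npas4 was highest there. The glutamatergic sum in replicate 3 was close to that in replicate 2, and the median log2 fold of that list was -0.28, -0.23, -0.30 and 0.68 in replicates 1 to 4.

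Granule cell markers, with Cbln1 at 490.0 ± 195 and Cbln3 at 264 ± 123 CPM, summed to 1039, 1459, 2369 and 1185 CPM. Purkinje cell markers, with Itpr1 at 886 ± 589 and Rgs8 at 607 ± 147 CPM, summed to 1394, 1688, 3353 and 1207 CPM. Replicate 3 again had the highest sum in both lists. Among non-neuronal cells, astrocyte markers (Slc1a2 and S100b at 319 ± 110.4 and 74.8 ± 14.1 CPM) summed to 391, 563, 845 and 523 CPM. Oligodendrocyte markers (Mbp at 286 ± 103 CPM) summed to 511, 765, 1223 and 1097 CPM. Microglia markers (C1qc at 7.86 ± 8.31 CPM, with C1qa at 0 in all libraries) summed to 23.4, 16.8, 50.2 and 21.1 CPM. Endothelial and pericyte markers (Flt1 at 18.7 ± 9.46 and Abcc9 at 10.2 ± 10.3 CPM) summed to 79.4, 16.1, 84.5 and 38.9 CPM.

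Replicate 3 had the highest sum in all 7 of these lists of other cell types, and replicate 1 the lowest in 3, those of granule cells, astrocytes and oligodendrocytes. By gene, replicate 3 was highest for 9 of 10 granule cell, 7 of 9 astrocyte and 6 of 9 Purkinje cell markers. It was highest for 4 of 6 inhibitory and 5 of 8 detected microglia markers, against 25.4% of all genes tested. Oligodendrocyte markers were split, with 4 of 9 highest in replicate 3 and 4 in replicate 4. The endothelial and pericyte list was also high in replicate 1, with a median log2 fold of 0.61 there and 0.33 in replicate 3, and 5 of its 10 genes had their highest level in replicate 1 against 3 in replicate 3. No tested gene of the 8 cell type lists passed in any comparison by edgeR's adjusted test. In a pulldown, fewer cells of a type and less RNA per cell cannot be told apart. With no input or untagged sample, the sums also do not show whether the RNA came from tagged cells. The part of the other cell types in the levels of Npas4, Egr1 and the rest was not tested.

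**Figure D4:**
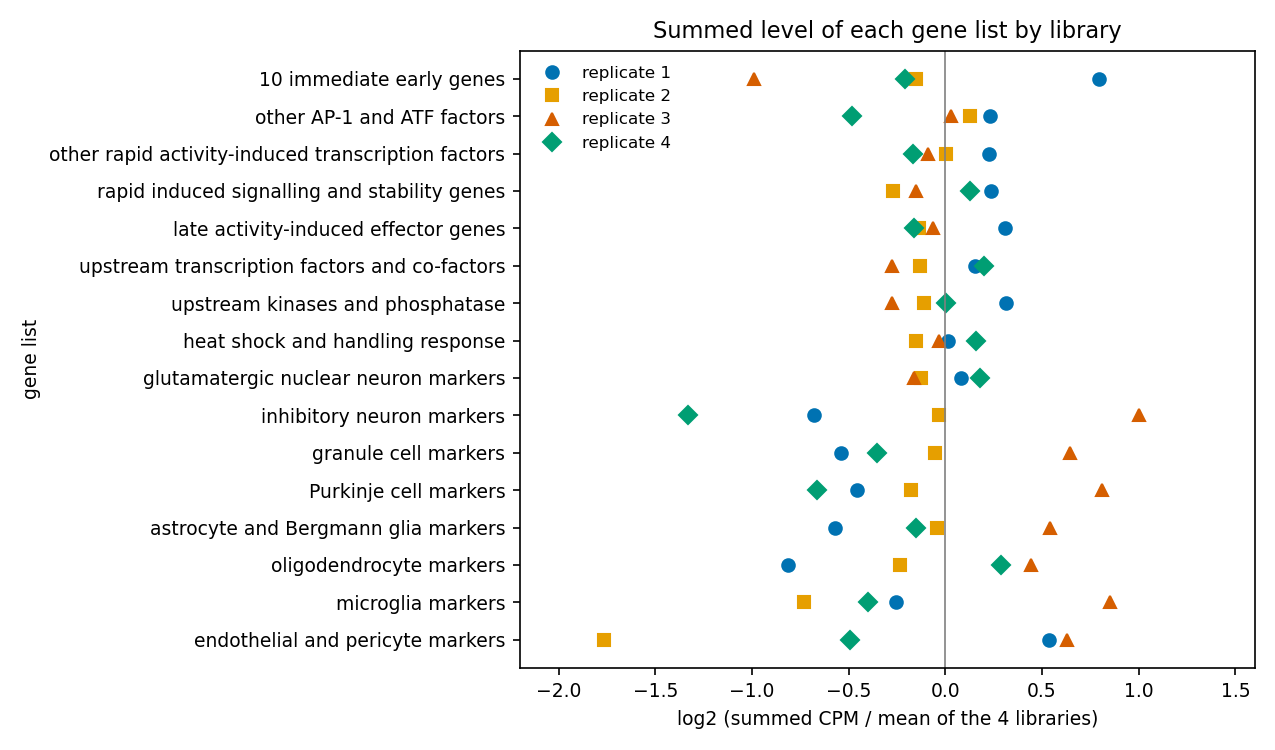
Summed CPM of each gene list in each library, as log2 of the ratio to the mean of the 4 libraries. The 10 immediate early genes are highest in replicate 1 (468 CPM) and lowest in replicate 3 (136 CPM), whereas the 7 lists of other cell types are all highest in replicate 3, that of endothelial cells and pericytes with replicate 1 close behind (79.4 and 84.5 CPM).

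Genes with the most similar course over the 4 libraries were named by the root mean square difference of centred log2(CPM + 0.5), among 8845 genes of at least 10 CPM. Nearest to Egr1 were Glra2 (0.06), Gtf2a2 (0.07), Rab3ip (0.08), Inafm2 (0.09) and Zfp146 (0.10), and 89 genes lay within 0.2 of it. Nearest to Arc were Pik3r4 (0.02), Sobp (0.04), Wac (0.05), Trim33 (0.06) and Tfam (0.06), with 240 genes within 0.2. Nearest to Fos was Nup54 (0.23), then Itpa (0.28), 2610002J02Rik (0.28), Pex7 (0.30) and Xndc1 (0.34), and no gene lay within 0.2. Over 4 points that share library and depth, likeness of this kind is a description only.

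The 10 genes are compact. In GENCODE release 21 for mouse, on the same assembly as the authors' mm10, they span 2469 to 20527 bases with a median of 5287, and all 10 are shorter than the median of 28746 bases over the 10627 genes that reached 10 counts in each library. Their union exon length had a median of 3454 bases against 4932, and 9 of 10 were below that median. Junb has 1 exon in its longest transcript, each Egr gene has 2, Arc has 3, Fos and Fosb have 4, Npas4 has 6 and Nr4a1 has 8. Fos occupies bases 85473890 to 85477273 of chromosome 12 (plus strand), Fosb is on chromosome 7 at 19302696 to 19310051 (minus) and Junb on chromosome 8 at 84974484 to 84978718 (minus). Arc and Nr4a1 are both on chromosome 15, at 74669083 to 74672570 (minus) and 101254269 to 101274795 (plus). Npas4 is on chromosome 19 at 4984355 to 4990316 (minus). Egr3 is on chromosome 14 at 70077203 to 70082614 (plus), Egr4 on chromosome 6 at 85511121 to 85513589 (minus) and Egr2 on chromosome 10 at 67535475 to 67542188 (plus).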

How the data were processed

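The deposited files hold whole-number counts per gene symbol for 4 libraries, with 5 summary rows of the counting program that were kept out of totals and tests (reads with no feature were 14.1 to 21.1% of all counted reads, those not unique 14.2 to 20.6% and ambiguous ones 2.04 to 2.94%). The submitters' processing notes list STAR 2.0.0e, HTSeq and mm10. Annotation, strand setting and kit: not given in the sources used here. Rn45s, the ribosomal RNA precursor, took 4.92 to 14.2% of the counts and stayed in the totals. CPM, exon lengths (GENCODE release 21, 1 match per symbol) and exact Poisson intervals were computed in Python 3.11.15 with scipy 1.17.1. In R 4.3.3, edgeR 4.0.16 compared each library with the remaining 3 (TMM, filterByExpr, robust glmQLFit, glmQLFTest, two-sided, threshold 0.05), after a test on simulated data. DESeq2 1.42.0 was an alternative, with library totals, no filter, totals without Rn45s, other pseudocounts (0.1 and 1), the longest transcript as length and each library left out. The SE beside each edgeR fold is the absolute log2 fold divided by the square root of the quasi-likelihood F statistic.

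The 10 genes, the other lists and the tests were chosen with earlier results of these data known. Named are all 10 genes, the 5 highest members of each activity, upstream or handling list and any called, the 2 highest of each cell type list (2 genes under that rule are not reported here), the 5 genes of most similar course to Egr1, Fos and Arc, and overlapping genes. Hspa1a, Hspa1b and the genes named under other observations fall outside that rule: their values had been seen when they were picked. Ccn1, Mrtfa and Mrtfb were read under Cyr61, Mkl1 and Mkl2.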

Additional observations from a re-analysis of the deposited data

Results flagged for a closer look

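In 3 of 100 values examined (10 genes, 16 list sums and the other genes named except Hspa1b), 1 library stood far from the other 3, and each time it was replicate 1, on the high side. Egr2 stood at 1.56 CPM in it and at 0.0970, 0 and 0 CPM in the others, with a gap to the next library of 0.938 of the whole range. That level rests on 15 counts. Hspa1a stood at 4.57 CPM against 2.33, 2.30 and 2.18 CPM, a gap of 0.940 of the range, and Mef2c at 221 CPM against 23.5, 36.6 and 37.0 CPM, a gap of 0.931. Each gap is above Dixon's 95% critical value. For normal values chance flags about 1 in 20 such groups, and 3 of 100 is not above that rate. The rate does not cover Egr2, whose level was 0 in 2 libraries. Hspa1a, Hspa1b and Mef2c were named after their values were seen. Hspa1b was not among the 100 values and stood at 1.27 CPM in replicate 4 against 0.624, 0.582 and 0.575 CPM.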

How the results depend on the processing

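No member was called in any of the 4 comparisons under DESeq2, library totals, no filter, Rn45s left out or with any baseline library left out (28 alternatives, 0 called in each), and DESeq2's smallest adjusted p was 0.0664, for Fos in replicate 4. With a library left out of the baseline, 1 library stands against 2, and it is assumed to vary like them. Leaving out 1 library moved 5 mean levels by over 1.5 times. Without replicate 1 the mean of Egr3 was 12.2 CPM, that of Nr4a1 3.90, that of Egr4 0.862 and that of Egr2 0.0323 CPM, and without replicate 3 that of Npas4 was 1.48 CPM. The SD between libraries was above the median of all genes for 10 of 10 genes with either other pseudocount and for 9 of 10 without replicate 1 (not Egr2) or replicate 3 (not Arc). In the order per exon length, 15 of 60 ranks moved. Fosb and Nr4a1 changed places with the longest transcript as length, and Egr3 and Fos without replicate 1 or 4. No paired analysis was possible because the samples form 1 group. Counts of 1 to 37 limit Egr2, Egr4, Junb and part of Npas4, for which differences between libraries below a few counts were not detectable.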

Other observations

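Some genes linked to the early response that the comparisons above do not describe had their own order of libraries. Mef2c, an activity-regulated transcription factor gene, stood at 221, 23.5, 36.6 and 37.0 CPM in replicates 1 to 4, and its log2 fold in replicate 1 against the other 3 was 2.56 (SE 0.43, edgeR adjusted p = 0.152). Bdnf, a neurotrophin gene induced by activity, stood at 22.3, 17.6, 9.97 and 4.19 CPM, the same order of libraries as Fos. Ier5 stood at 27.9, 18.1, 16.1 and 2.09 CPM, with a log2 fold of -3.13 in replicate 4 (SE 0.76, edgeR adjusted p = 0.167). Homer1, a scaffold gene with an activity-induced short form, stood at 87.6, 46.7, 35.8 and 49.2 CPM, the same order of libraries as Egr1. Nab1 and Nab2, which encode co-repressors of Egr proteins, stood at 25.02 ± 5.67 and 27.9 ± 3.18 CPM.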
